A study of Mus musculus with 5 samples.

Results

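Transcripts of Postn, Dcn, Igfbp2, Ttr and Hbb-b2 were lower in a pool of adult mouse retina RNA than in a pool of newborn mouse cortex RNA on every array. Retina held 27.5% of the cortex level for Postn, 31.7% for Hbb-b2, 37.6% for Igfbp2, 37.9% for Ttr and 39.2% for Dcn, in the direction of the ratio taken here as likely. These 5 genes, of 8798 measured in all, were grouped as genes of meninges, choroid plexus and blood, and each is carried by 1 probe with its symbol. They were chosen by their ratios on these same arrays, so the ratios are given as a description and no test is made of them.

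The retina came from adult C57/B6 mice and the cortex from Swiss-Webster mice at postnatal day 1. Total RNA of each tissue was pooled and both pools were put on 5 two-colour Agilent arrays, retina labelled with Cy5 and cortex, the reference, with Cy3. The arrays are technical replicates of 1 pair of pools, with no dye swap, run to learn how much values vary within a platform. Tissue, age, strain and dye therefore cannot be told apart, the number of animals behind a pool is not stated in the sources used here, and every SD below is the spread between arrays. Values are log2 ratios of retina over cortex, so that -1 stands for a level in retina at 2-fold below that in cortex. The direction and the log10 scale of the deposited values are likely rather than stated. Turned the other way, the ratios would make the 5 genes 2.55-fold to 3.63-fold higher in retina, and the markers of both tissues given further on bear on the direction. Read as log2 in place of log10, the same values would put the 5 genes between 1.33-fold and 1.47-fold lower.

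Periostin (Postn) and decorin (Dcn) are matrix proteins of fibroblasts, among them those of the meninges that wrap the brain. Periostin is a fasciclin-domain protein that binds collagen and integrins. Decorin is a small leucine-rich proteoglycan that coats collagen fibrils and binds TGF-beta. Igfbp2 is a secreted carrier of insulin-like growth factors, made in the developing brain by meninges and choroid plexus among others. Transthyretin (Ttr) carries thyroxine and, together with retinol-binding protein, retinol. In the brain it is made by the choroid plexus, and in the eye by the pigment epithelium. Hbb-b2 encodes an adult beta-globin chain of haemoglobin, which red cells carry into any tissue that was not flushed of blood.

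RefSeq promoters of build GRCm38.p6 were at hand for 2 of the 5 genes, Postn and Igfbp2, with entries at 2 starts each. They are shown because the genes lie on the same side of 0 on every array, together with the promoters of the adult beta-globin genes Hbb-bs and Hbb-bt, the copies of the C57BL/6J assembly. Each line gives the 100 bases before a start, 5′ to 3′ along the gene, at chr3:54361007-54361106 (plus strand) for Postn, chr1:72824380-72824479 (plus strand) for Igfbp2, chr7:103827929-103828028 (minus strand) for Hbb-bs and chr7:103813924-103814023 (minus strand) for Hbb-bt. Capitals mark matches, on either strand, to the TATA box TATAAA, to CCAAT, to the GC box GGGCGG and to CACCC, where adjacent capitals can join overlapping or neighbouring matches.
Postn: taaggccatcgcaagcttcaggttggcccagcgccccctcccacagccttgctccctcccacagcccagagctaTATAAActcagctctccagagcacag
Igfbp2: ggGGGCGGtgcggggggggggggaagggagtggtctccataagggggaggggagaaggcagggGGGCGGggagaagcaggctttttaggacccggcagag
Hbb-bs: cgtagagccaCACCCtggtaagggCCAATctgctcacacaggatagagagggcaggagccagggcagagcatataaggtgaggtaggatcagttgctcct
Hbb-bt: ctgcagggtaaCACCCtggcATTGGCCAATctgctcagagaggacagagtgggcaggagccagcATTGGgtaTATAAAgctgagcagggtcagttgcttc

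The Postn window held a TATAAA match that begins 26 bases before the start, as the Hbb-bt window did at 28 bases. Over all 32851 promoter windows of 100 bases in the same table, 5.56% held TATAAA on either strand. The Igfbp2 window held GGGCGG at 98 and at 37 bases before the start, a motif found in 24.7% of windows, and no TATAAA. Both globin windows held CACCC and CCAAT, which occurred in 27.2% and 18.9% of windows. At the other start of each gene, the only match was 1 CACCC on the opposite strand, for Postn as for Igfbp2. The G and C content was 60.0% in the Postn window and 71.0% in that of Igfbp2, against a median of 55.0%. None of the motifs was common to the Postn and Igfbp2 windows shown, which says only that these letters are not in these windows.

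Periostin had the lowest mean ratio of the 5 genes and the widest spread. Its probe (number 11228, gene ID 50706) read -2.02, -1.52, -1.62, -2.08 and -2.06 on arrays 1 to 5. Arrays 1, 4 and 5 lay close together, and arrays 2 and 3 were less far from 0. The mean was -1.86 ± 0.27 (SD, n = 5), or 3.63-fold lower in retina, and single arrays ran from 2.87-fold to 4.24-fold. Its SD was larger than that of 91.6% of all genes, whose median SD was 0.085.

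Hbb-b2 came next in order and varied little. The beta-globin probe (number 11842, gene ID 15130) read -1.61, -1.60, -1.64, -1.66 and -1.77 on arrays 1 to 5. Array 5 was the lowest and the other arrays lay within a narrow band. The mean was -1.66 ± 0.07 (SD, n = 5), or 3.15-fold lower in retina. Adult beta-globin genes are near-identical copies, and C57BL strains carry the haplotype whose genes are named Hbb-bs and Hbb-bt, while Hbb-b1 and Hbb-b2 belong to another haplotype. Which copy gave the signal in either pool cannot be told apart from a probe ratio, and the pools differ in strain.

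Igfbp2 and Ttr were almost alike and were the most repeatable of the 5. The Igfbp2 probe (number 12567, gene ID 16008) read -1.48, -1.39, -1.40, -1.41 and -1.38, with array 1 slightly the lowest. Its mean was -1.41 ± 0.04 (SD, n = 5), or 2.66-fold lower in retina. The Ttr probe (number 19124, gene ID 22139) read -1.44, -1.38, -1.42, -1.42 and -1.34, also lowest on array 1. Its mean was -1.40 ± 0.04 (SD, n = 5), or 2.64-fold lower. Only 9.79% of all genes had a smaller SD than Igfbp2 and 11.4% a smaller one than Ttr.

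Decorin lay nearest to 0 by its mean, with a spread that covered the values of Igfbp2 and Ttr. Its probe (number 959, gene ID 13179) read -1.19, -1.66, -1.26, -1.18 and -1.46 on arrays 1 to 5. Arrays 2 and 5 were the low ones, and arrays 1, 3 and 4 lay together nearer to 0. The mean was -1.35 ± 0.21 (SD, n = 5), or 2.55-fold lower in retina, with single arrays from 2.26-fold to 3.15-fold. The SD was larger than that of 87.4% of genes.

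**Figure D1:**
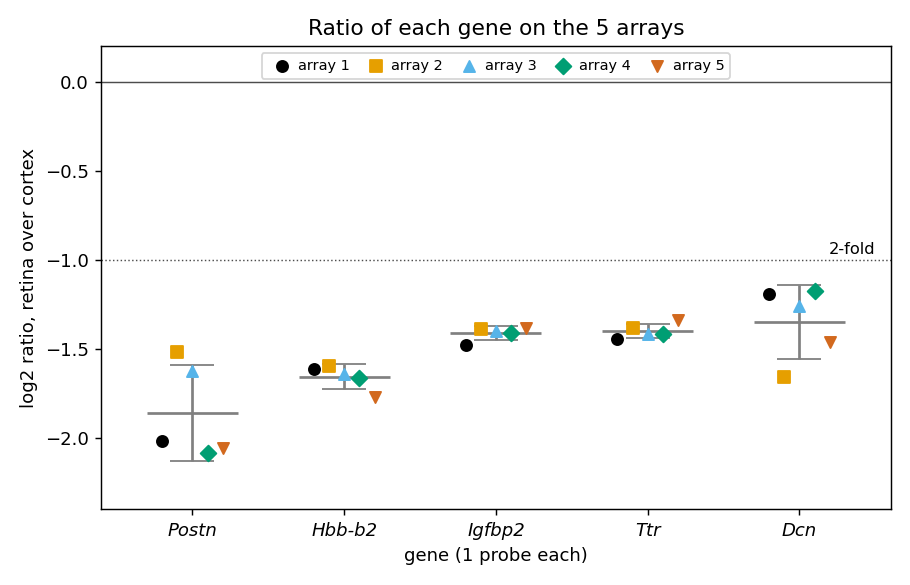
Log2 ratio of retina over cortex (vertical axis) for the 5 genes in order of their mean, with 1 marker per array, a grey line for the mean and bars of 1 SD over 5 arrays; the dotted line is 2-fold. All 25 values lie below the dotted line, from -2.08 for Postn on array 4 to -1.18 for Dcn on array 4.

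All 25 values, 5 genes on 5 arrays, were below -1. The order of the means was Postn, Hbb-b2, Igfbp2, Ttr and Dcn, and most neighbours in it did not differ beyond their spread. Postn and Hbb-b2 were 0.20 apart, less than the SD of Postn, and Postn was the lower on 3 of 5 arrays. Hbb-b2 and Igfbp2 were 0.24 apart and their values did not overlap, so that this step exceeded the spread. Igfbp2 and Ttr differed by 0.011 and Ttr and Dcn by 0.049, with overlapping values in both cases. Of the 10 pairs among the 5 genes, 6 had overlapping ranges. These are ratios of each gene to itself, and levels of different probes were not compared.

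Seen over all genes, the 5 were far from the centre and not among the extremes. By limma's test of a change beyond 2-fold (adjusted p below 0.05 over all genes), 337 of 8798 genes, or 3.83%, were lower in retina, and 246, or 2.80%, were higher. The 5 genes are among the 337, which is how they came to be chosen, so nothing is read from that count. Their ranks counted from the lowest of all 8798 ratios were 99 for Postn, 148 for Hbb-b2, 227 for Igfbp2, 231 for Ttr and 250 for Dcn. Among the relatives of Dcn, Bgn passed the 2-fold test narrowly at -1.22 (adjusted p of 0.0477, limma), and not in 10 of 14 alternatives. Ogn, at -0.97 with an SD of 0.47, did not pass.

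**Figure D2:**
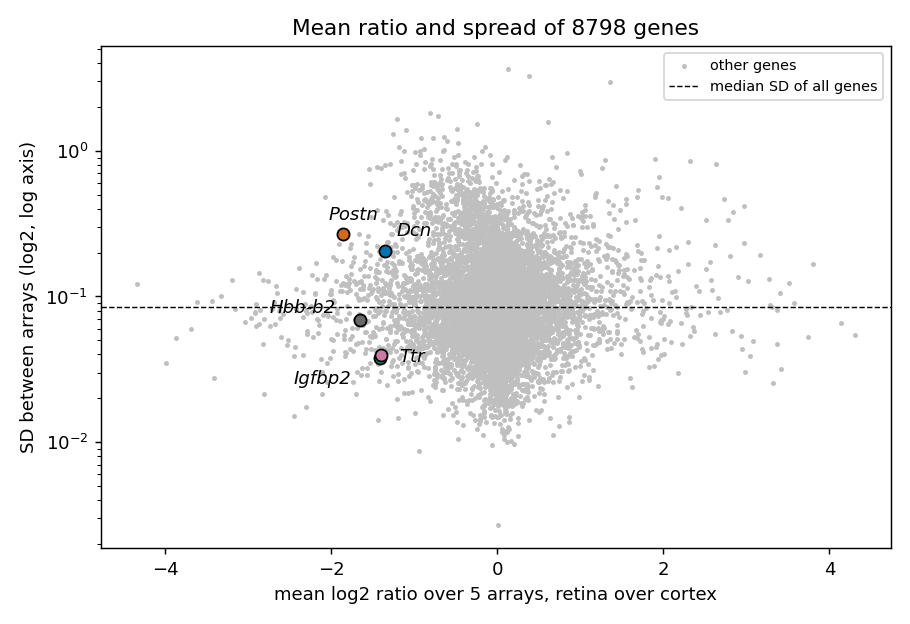
Mean log2 ratio over 5 arrays (horizontal axis) against the SD between arrays (vertical axis, log scale) for 8798 genes in grey and the 5 genes in colour; the dashed line is the median SD of 0.085. Postn and Dcn lie above that line, and Hbb-b2, Igfbp2 and Ttr below it.

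Genes listed as markers of the labelled tissues lay on the sides of 0 that the labels give. Of 11 measured genes of retinal neurons all 11 were higher in retina, with a median of 2.99. Of 17 genes of newborn cortical neurons 14 were lower, none higher and 3 not passed, with a median of -2.69. Over all genes 2.80% were higher and 3.83% lower. Both lists were chosen with earlier results of these data known, so the counts are a description and not a test of tissue or direction. The photoreceptor cadherin Cdhr1 stood at 4.30 ± 0.05 and Dcx, the doublecortin of young neurons, at -3.99 ± 0.04, on the sides of 0 that the labels give with the direction as taken. The median over all genes was -0.005. Exact 0 values, read as no value, numbered from 174 to 1068 per array, and none fell on the probes of the 5 genes. In RNA of whole tissue, fewer cells of a type and less RNA per cell cannot be told apart.

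The wider lists of the cell types named in the grouping had medians near 0. Of the genes listed for meninges and fibroblasts, 18 were measured besides Postn, Dcn and Igfbp2. The limma 2-fold test called 1 of them lower, none higher and 17 not passed, and their median was -0.08. The share of 5.56% lower is near the 3.83% over all genes, so the count says little about the list, and it became 0 without array 1, 3, 4 or 5. The fibrillar collagen genes that meningeal fibroblasts express stood at 0.52 ± 0.05 for Col1a1, -0.06 ± 0.04 for Col1a2 and -0.40 ± 0.06 for Col3a1 (SD, n = 5). Col1a1 was therefore on the retina side of 0 on every array, from 0.49 to 0.58, while Col3a1 was on the cortex side, without passing. The value of Col1a2 is the mean of probes at -0.30 and 0.19, so it describes neither. The transporter Slc6a13, found in meningeal cells, stood at -0.11 ± 0.14, and the matrix protein Islr at -0.86 ± 0.15.

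Some genes with several probes did not give a single answer in that list. For Igf2, a growth factor made by meninges and choroid plexus, 1 probe averaged -1.18 ± 0.10 and the other 0.13 ± 0.13. For Cxcl12, a chemokine that meninges secrete, the probes averaged -1.10 ± 0.09 and 0.01 ± 0.05. The gene means of -0.53 and -0.54, neither of which passed, thus lay between a low probe and a probe near 0. Tested on its own, the low Igf2 probe passed (adjusted p of 0.0399 over all probes, limma). Those probes were picked out after their values were seen. Postn, Dcn, Igfbp2, Ttr and Hbb-b2 have 1 probe each, so no second probe speaks to their ratios.

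Choroid plexus genes other than Ttr and Igfbp2 were mostly near 0. Of 11 measured, 2 were higher by the limma 2-fold test, none lower and 9 not passed, with a median of 0.10, and unadjusted p-values below 0.05 numbered 2. The share higher was 18.2%, beside 2.80% higher and 3.83% lower over all genes. In a test of each probe, 1 of the 11, Igf2 by its low probe, was lower. Otx2, a homeobox factor of choroid plexus that photoreceptor and bipolar cells also express, was higher at 3.42 ± 0.03 (adjusted p of 3.42e-08, limma). Aqp1, a water channel of the choroid plexus that some retinal neurons also make, was higher at 2.39 ± 0.12 (adjusted p of 2.78e-06, limma). The claudin Cldn2 stood at -0.32 ± 0.41 and Wfdc2 at 0.53 ± 0.22. Defining genes such as Kl and Folr1 were not measured here. Of the pigment epithelium genes, Ttr, Otx2 and Stra6, the receptor for retinol-binding protein (0.03 ± 0.01), were the 3 measured.

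The other measured genes of red cells and their precursors lay between -0.68 and 0.23. The limma 2-fold test called 0 of these 10, with 0 at an unadjusted p below 0.05, and their median was 0.05. With 3.83% of all genes lower, a list of 10 would hold few calls or none, so nothing is read from the count. The embryonic beta-like globin Hbb-y stood at 0.04 ± 0.04 and the embryonic alpha-like globin Hba-x at 0.23 ± 0.05. The red cell anion exchanger Slc4a1 was at 0.10 ± 0.02, the erythroid factors Klf1 and Gata1 at -0.08 ± 0.07 and -0.14 ± 0.06, and Bpgm, an enzyme of red cells that sets the oxygen affinity of haemoglobin, at 0.19 ± 0.03. Adult alpha-globin and the haem synthesis gene Alas2 were not measured here. The member farthest from 0 was Ermap, an erythroid membrane protein, at -0.68 ± 0.41, with values from -1.34 on array 4 to -0.29 on array 3.

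Of 16 measured genes of haem synthesis and iron handling, 1 was lower, none higher and 15 not passed, with a median of 0.06. The share lower was 6.25%, near the 3.83% over all genes. The highest gene, Trf, averaged 1.18 ± 0.13 and did not pass (adjusted p of 0.101, limma). That is the mean of probes at 2.48 and -0.13, so it describes neither. Tested on its own, the high Trf probe passed (adjusted p of 2.61e-06 over all probes, limma). The lower gene was Ftl1, the ferritin light chain, at -1.39 ± 0.06 or 2.61-fold lower (adjusted p of 0.00018, limma). Its partner Fth1, the ferritin heavy chain, stood on the other side of 0 at 0.39 ± 0.06 and did not pass. The haem synthesis enzymes Uros, Urod, Cpox and Ppox lay between -0.04 and 0.31. Alas1, the first enzyme of the pathway outside erythroid cells, was below 0 on every array at -0.39 ± 0.30 and did not pass. Alad averaged 0.01 ± 0.12, the mean of probes at -0.41 and 0.44.

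**Figure D3:**
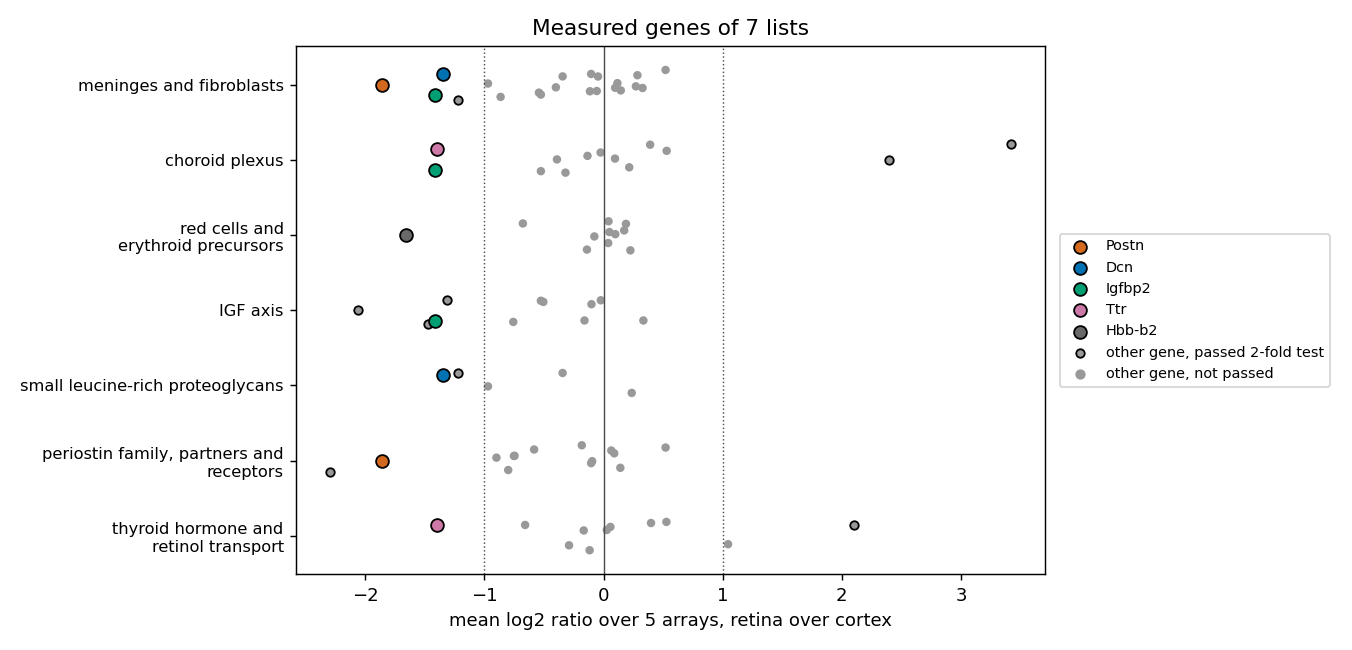
Mean log2 ratio over 5 arrays (horizontal axis) of the measured genes in 7 lists, 1 point per gene with a vertical offset only for legibility; large coloured points are the 5 genes, black outlines mark genes past the 2-fold test and dotted lines stand at 2-fold. The other genes of meninges, choroid plexus and red cells lie mostly between the dotted lines, and IGF-axis genes reach -2.06.

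The 4 measured relatives of Igfbp2 were all below 0 on every array, and 2 of them were lower by the 2-fold test. Igfbp3, the main serum carrier of these growth factors, read from -2.16 to -1.95 and averaged -2.06 ± 0.08 (SD, n = 5). It was 4.16-fold lower in retina, farther from 0 than Igfbp2 (adjusted p of 2.36e-06, limma). Igfbpl1, a related secreted protein of newborn neurons and their precursors, was lower at -1.31 ± 0.09 (adjusted p of 0.0016, limma). Igfbp5 (-0.76 ± 0.07) and Igfbp4 (-0.51 ± 0.07) did not pass.

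Of 10 measured genes of the IGF axis besides Igfbp2, 3 were lower, none higher and 7 not passed, with a median of -0.52. The third lower gene was Irs4, an adaptor below the insulin and IGF receptors, at -1.47 ± 0.08 (adjusted p of 0.000153, limma). The receptor Igf1r stood at 0.33 ± 0.04 and the insulin receptor Insr at -0.02 ± 0.24. Igf1, with 3 probes, averaged -0.10 ± 0.11, with 1 of its probes between -0.94 and 0.19. The share of lower genes among these 10 was 30.0%, beside 3.83% over all genes, a description of a short list.

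The proteoglycan relatives of decorin included 1 further lower gene. Biglycan (Bgn), the closest relative of decorin, read -1.26, -1.44, -1.16, -1.08 and -1.16 on arrays 1 to 5 and averaged -1.22 ± 0.14, or 2.33-fold lower. Its adjusted p was 0.0477 by limma. Over 14 alternatives with the same log base and minimum fold its adjusted p from limma ran from 0.0417 to 0.205, and Bgn did not pass in 10 of them, among them the fits without array 1, 3, 4 or 5. Osteoglycin (Ogn) averaged -0.97 ± 0.47 and fibromodulin (Fmod) -0.34 ± 0.24, and neither passed. Prelp, a leucine-rich protein that anchors basement membranes, stood at 0.24 ± 0.10. Of the 4 genes measured besides Dcn, 1 was lower, none higher and 3 not passed, with a median of -0.66. The share lower was 25%, beside 3.83% over all genes. It rests on Bgn alone in a short list, so nothing is read from it.

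Decorin and most of its measured relatives were lowest on array 2. Dcn, Bgn, Fmod and Ogn each had their lowest value on array 2, at 0.31, 0.22, 0.35 and 0.49 below their own means. Ogn deviated more on array 1, where it was 0.66 above its mean. Tgfbi, the fasciclin-domain relative of periostin, was also lowest on array 2, at -1.32 against a mean of -0.75 ± 0.35. Postn went the other way, 0.34 above its mean on array 2, as did Prelp, 0.16 above. The meninges and periostin lists did not show this as a rule. Of their genes other than the 5, array 2 was the lowest for 4 of 18 and 3 of 13. These counts include Bgn, Fmod and Ogn in the meninges list and Tgfbi in the periostin list. Array 2 was the lowest for 18.6% of all genes and 11.3% of the 337 lower ones. It was the lowest for 6 of 16 genes in the haem and iron list and 3 of 10 in the IGF list. In the choroid plexus list it was so for 2 of 11, and in the red cell list for 1 of 10. The part of array 2 in these ratios was not tested, and without it Dcn stood at -1.27 and Postn at -1.95.

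**Figure D4:**
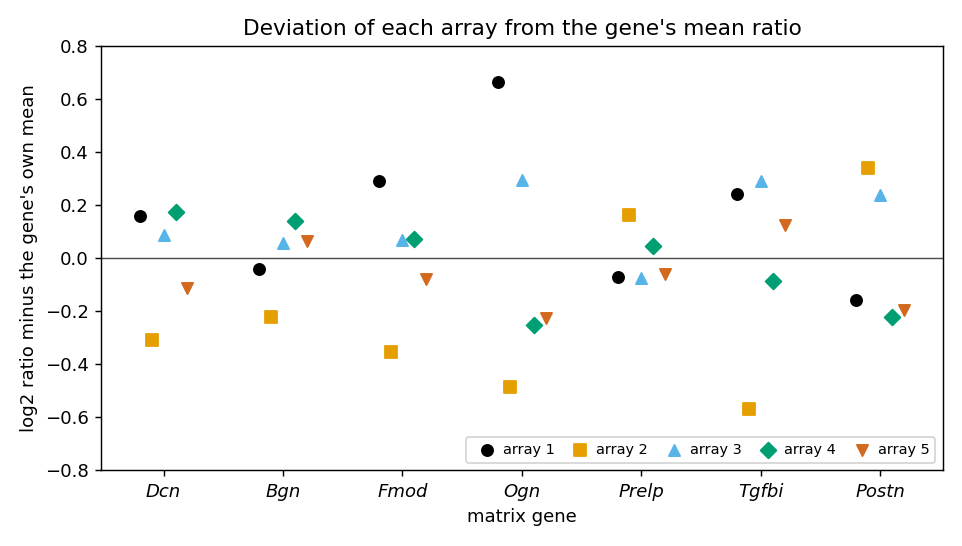
Log2 ratio on each array minus the gene's own mean over 5 arrays (vertical axis) for Postn, Dcn and their measured family members, 7 genes in all, with 1 marker per array. The array 2 squares are the lowest points for Dcn, Bgn, Fmod, Ogn and Tgfbi and the highest for Prelp and Postn.

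Among relatives, partners and receptors of periostin, 13 were measured besides Postn. Of these 1 was lower, none higher and 12 not passed, with a median of -0.18. The share lower was 7.69%, beside 3.83% over all genes. The lower gene was Ccn3, a matricellular protein, at -2.29 ± 0.08 or 4.90-fold lower (adjusted p of 1.03e-06, limma). Tenascin C (Tnc), a matrix protein that binds periostin, had 1 probe at -1.94 ± 0.07 and another at 0.44 ± 0.08, so its mean of -0.75 describes neither. Tested on its own, its low probe passed (adjusted p of 4.79e-06 over all probes, limma). The integrin chains Itgav and Itgb5 stood at 0.09 ± 0.08 and 0.14 ± 0.25, and Itgb1 at -0.58 ± 0.12. Itgav is the mean of probes at -0.16 and 0.34, and Itgb1 that of probes at -0.81 and -0.36.

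TGF-beta is bound by decorin and induces periostin in fibroblasts. In a list of its ligands, receptors and mediators, the limma 2-fold test called 0 of 12 measured genes. Of these 1 had an unadjusted p below 0.05, and the list median was -0.10. The list also holds Egfr and Met, which are receptors of other growth factors. Over all genes 3.83% were lower and 2.80% higher, so that a list of 12 would hold few calls or none. Tgfb2 was the farthest from 0, at 1.21 ± 0.21 (adjusted p of 0.271, limma). Tested on their own, its probe at 1.22 ± 0.13 passed (adjusted p of 0.0441 over all probes, limma) and that at 1.20 ± 0.39 did not. Met averaged -0.91, the mean of probes at -1.87 and 0.05, and the low probe passed on its own (adjusted p of 6.03e-06 over all probes, limma). The receptor Tgfbr2 averaged -0.38, the mean of probes at -0.96 and 0.21. Tgfb1 stood at 0.03 ± 0.04, Tgfb3 at 0.32 ± 0.08 and the receptor Tgfbr1 at -0.26 ± 0.09.

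Beside transthyretin, the genes of thyroid hormone and retinol transport were mostly near 0. Of 10 measured besides Ttr, 1 was higher, none lower and 9 not passed, with a median of 0.04. That 1 of 10 stands beside 2.80% higher and 3.83% lower over all genes. The higher gene was Aldh1a1, a retinaldehyde dehydrogenase, at 2.11 ± 0.11 (adjusted p of 6.09e-06, limma). Albumin (Alb), another plasma carrier of thyroid hormone, stood at 0.53 ± 0.05. The thyroid hormone receptor Thra averaged -0.66 ± 0.05 and did not pass, but its 3 probes differed, at -1.19, -0.76 and -0.02. Tested on its own, the lowest passed (adjusted p of 0.00815 over all probes, limma). Rxra averaged 1.05 ± 0.04 and did not pass (adjusted p of 0.733, limma). Its probes stood at 1.85 and 0.24, and the high probe passed on its own (adjusted p of 3.14e-06 over all probes, limma).

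The genes nearest to each of the 5 were found by the root mean square difference of the log2 ratios over the 5 arrays. For Ttr they were Nsg2, a neuronal endosomal protein, at 0.028, the phosphodiesterase Pde10a at 0.036 and Ftl1 at 0.037. For Igfbp2 they were Nsg2 at 0.035, Pde10a at 0.043 and Lingo1, a leucine-rich membrane protein of neurons, at 0.047. Igfbp2 had 34 genes within 0.1 and Ttr 38, and their nearest lists shared Nsg2 and Pde10a. Hbb-b2 had 13 genes within 0.1, the nearest being Kctd12, at 0.053, Ddah2, at 0.061, and Tax1bp3, at 0.065. The value of Kctd12 is the mean of probes at -2.68 and -0.67, so neither of its probes lay near Hbb-b2.

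No gene lay within 0.1 of Postn or Dcn. The nearest to Postn were the amino acid transporter Slc38a5 at 0.187, the heparan sulfate sulfotransferase Hs6st2 at 0.198 and Ypel1 at 0.199. The value of Ypel1 is the mean of probes at -2.68 and -0.94, so neither of its probes lay near Postn. The nearest to Dcn were the LIM-domain protein Fhl2 at 0.111, the myosin Myo1c at 0.116 and Simc1 at 0.123. Each of them was lowest on array 2 as Dcn was, which choosing them by closeness to the values of Dcn favours. Likeness here is over technical arrays of a single pair of pools and compares sizes of ratios, not patterns across tissues.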

How the data were processed

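The deposited table holds 1 value per array for each of 21446 probes. The unit was read as log10 of the ratio of the channels, from the values as the authors deposited them: they are signed, centred near 0 and stop at 2 and -2. How background, dyes and filters were handled before deposit is not given in the sources used here. Each value was multiplied by 3.32 to give a log2 ratio, and an exact 0 was taken as missing. Names came from the gene ID of the platform annotation through a RefSeq table of GRCm38.p6. Of all probes, 11813 had 1 symbol, 559 several and 9074 none listed, and 11782 were named. Genes were averaged over their probes without a missing value (11500 probes, 8798 genes).

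An intercept was fitted to the 5 ratios of each gene with limma 3.58.1 in R 4.3.3. It was tested two-sided against a minimum of 2-fold with treat, with Benjamini-Hochberg adjustment over all genes and a threshold of 0.05. The script was tested on simulated data. Spot brightness was not used, so signal over background is not known, and 5 arrays set the precision. As the arrays repeat the same pools, p-values measure the spread between arrays only.

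The 5 genes, the gene lists and the tests were chosen with earlier results of these data known. Genes were named by rule: the 5, their measured family members, the genes of each list that passed (up to 3 a side, or the farthest from 0 if none) and the 3 nearest to each of the 5. Other genes named are examples chosen after their values were seen. Alternatives covered centring, scaling, exact 0, missing values, the probe rule, the log base, the minimum fold, array weights and arrays left out.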

Additional observations from a re-analysis of the deposited data

Results flagged for a closer look

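In 2 of 45 named genes, 1 array stood apart from the other 4 by its gap relative to the range. Chance alone flags about 5% of the genes checked, so this count is near what chance gives. Ftl1, the ferritin light chain, stood at -1.28 on array 5, with the other arrays from -1.43 to -1.40. Simc1, near Dcn in its ratios, stood at -1.75 on array 2, with the other arrays from -1.31 to -1.18. None of Postn, Dcn, Igfbp2, Ttr and Hbb-b2 had such an array by this rule. Igfbp2 fell just short of it, with a gap of 0.707 of its range. It stood at -1.48 on array 1, with the other arrays from -1.41 to -1.38.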

How the results depend on the processing

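The ratios of the 5 genes stayed below 0 and within 1 SD of the values given under 60 of 65 alternatives, and the other 5 are the readings of the deposited values as log2: -0.56 for Postn, -0.50 for Hbb-b2, -0.42 for Igfbp2, -0.42 for Ttr and -0.41 for Dcn. Most of the 60 were fixed in advance. These ratios rest on 1 probe each with no exact 0, so the settings for exact 0, missing values and probe rule could not change them. Leaving arrays out as done here could not move a mean by 1 SD either. Only centring, scaling and the log base could have done so. Leaving out 1 array at a time moved Postn between -1.95 and -1.80 and Dcn between -1.39 and -1.27. Over all genes, the log2 reading left 4 lower and 3 higher genes, and a minimum of 1.5-fold gave 793 and 615. List counts here leave out Postn, Dcn, Igfbp2, Ttr and Hbb-b2, whose calls the choice of genes fixed. Under the log2 reading 0 genes were called lower in the meninges, haem, IGF, proteoglycan and periostin lists, 0 were higher in the choroid plexus, vessel, pigment epithelium and thyroid hormone lists, and 1 gene each was still called in the retinal and cortical neuron lists. These counts rest on the log base, which sets the size of every ratio.

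The 1 lower gene of the meninges and proteoglycan lists, Bgn, became 0 to 1 with 1 array left out (0 without array 1, 3, 4 or 5). It became 0 in both lists with columns scaled to equal spread, exact 0 read as 0, probes valued on at least 3 arrays, array weights or, chosen after seeing the data, without arrays 1 and 4. A test of each probe left 0 in the proteoglycan list and 1, Igf2, in the meninges list. With columns scaled, 1 vessel gene was higher in place of 3, and with the least variable probe per gene Slc2a1 was no longer called. With 1 array left out, 0 to 1 haem and iron gene was higher (Trf, without array 4). With the least variable probe per gene, the counts were 2 lower meninges genes, 1 lower choroid plexus gene, 1 higher haem and iron gene and 2 lower periostin genes. The TGF-beta list then held 1 lower gene, Met, and 1 higher, and the thyroid hormone and retinol list 1 lower gene. A test of each probe gave the same counts for these lists other than meninges, and 2 higher thyroid hormone and retinol genes. The minimum of 1.5-fold gave 2 lower meninges genes, 2 higher haem and iron genes, 3 lower periostin genes and 2 higher thyroid hormone and retinol genes. In the TGF-beta list it gave 1 lower gene, Met, and 1 higher. The cause of these moves was not tested beyond what each setting changes by construction. Of 448 list counts under alternatives, 396 kept within 1.5 times the count given. No paired analysis was possible because the arrays form 1 group, with both pools on each array.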

Other observations

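Vessel genes and genes of other blood cells were looked at beside Hbb-b2. In the vessel and pericyte list 3 of 13 measured genes were higher in retina by the limma 2-fold test, 0 were lower and 10 were not passed, with a median of -0.10. The share higher was 23.1%, beside 2.80% higher and 3.83% lower over all genes. The VEGF receptor Flt1 stood at 1.44 ± 0.08. Kdr, another, stood at 1.16 ± 0.08 (adjusted p of 0.0231, limma). Over 14 alternatives the adjusted p of Kdr from limma ran from 0.0188 to 0.164, and it did not pass in 5 of them: without array 1, 2 or 5, without arrays 1 and 4, and with columns scaled. The glucose transporter Slc2a1 stood at 1.29 ± 0.09, the mean of probes at 2.53 and 0.05, and it too did not pass with columns scaled (adjusted p of 0.1, limma). Nor did Slc2a1 pass with the least variable probe, which is the one at 0.05. Tested on their own, the probe at 2.53 passed (adjusted p of 9.81e-06 over all probes, limma) and the other did not. The endothelial cadherin Cdh5 (-0.47 ± 0.04) and the pericyte receptor Pdgfrb (-0.44 ± 0.08) were not passed. In the list of leucocytes, platelets and microglia, 0 of 10 genes passed by limma, 0 at an unadjusted p below 0.05, with a median of -0.08. The farthest from 0 was the platelet chemokine Ppbp at -1.02 ± 0.42, with values from -1.54 on array 5 to -0.65 on array 4.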
